A study of Mus musculus with 10 samples.

Results

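Insulin-like growth factor (IGF) signaling and the IGF binding proteins were followed in mouse cranial neural crest cells without Kat5 or Ep400. The genes described were *Igf1*, *Igf1r*, *Irs1*, *Irs2* and *Igfbp2* to *Igfbp7*, taken by symbol from a table of read counts, and they make up 10 of its 43346 genes. Kat5 (also called Tip60) is the histone acetyltransferase and Ep400 the ATP-dependent remodeling subunit of the Tip60/Ep400 chromatin complex. The libraries were made from O9-1 cells, a tetraploid mouse line of cranial neural crest origin. The line was kept on Matrigel in medium that held fetal calf serum, was conditioned by STO fibroblasts and was supplemented with FGF2.

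4 wildtype samples, described as biologically independent, were compared with 3 clones that carried CRISPR/Cas9 mutations in *Kat5* (Kat5/1 to Kat5/3) and 3 clones with such mutations in *Ep400* (Ep400/1 to Ep400/3). Each clone was grown from a single sorted EGFP-positive cell, and all groups shared the line, substrate and medium. By the allele analysis of the study all *Kat5* alleles were shifted out of frame, whereas most *Ep400* alleles of Ep400/2 and a single allele of Ep400/3 had deletions that kept the frame. The study placed these deletions in the ATP binding site and expected them at least to inactivate Ep400. By immunostaining it detected no Kat5 protein in any Kat5 ko clone and no Ep400 protein in any Ep400 ko clone. The clone is the replicate here, so clonal differences are part of the spread within each knockout group. The study describes no unedited control clones. Knockout therefore cannot be told apart from transfection, sorting and single-cell cloning, and the wildtype spread need not hold clonal differences. Both knockouts were compared with the same wildtype libraries, and the direct comparison shares its clones with the other two. Ligand in the medium, including its serum, was not measured.

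IGF1 and IGF2 are secreted ligands that activate the receptor tyrosine kinase IGF1R. The activated receptor phosphorylates the docking proteins IRS1 and IRS2, which recruit PI3-kinase and so activate AKT and mTORC1. These promote growth and protein synthesis, and AKT keeps FOXO transcription factors such as FOXO1 out of the nucleus. IGF binding proteins hold the ligands outside the cell and can limit, prolong or localize their action, and proteases release the ligand again.

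Between 30968945 and 48301792 reads per library were counted on genes, and levels are given as counts per 1000000 reads (CPM) after TMM normalization over all 10 libraries. *Kat5* transcripts were 30.5% to 43.1% of the wildtype mean in the Kat5 ko clones (log2-fold change −1.40, adjusted p = 0.0217), and *Ep400* transcripts 34.3% to 38.5% in the Ep400 ko clones (log2-fold change −1.44, adjusted p = 0.00121). The *Kat5* call was kept in 3 of the 7 fits without a single library. Of 20 genes of cranial neural crest and its mesenchyme, 13 had more than 3 counts in every library. However, *Sox10* and *Foxd3*, which are commonly used to define neural crest cells, and *Alx4* had no counts in any. In bulk RNA, fewer cells that express a gene and less RNA per cell cannot be told apart.

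**Figure D1:**
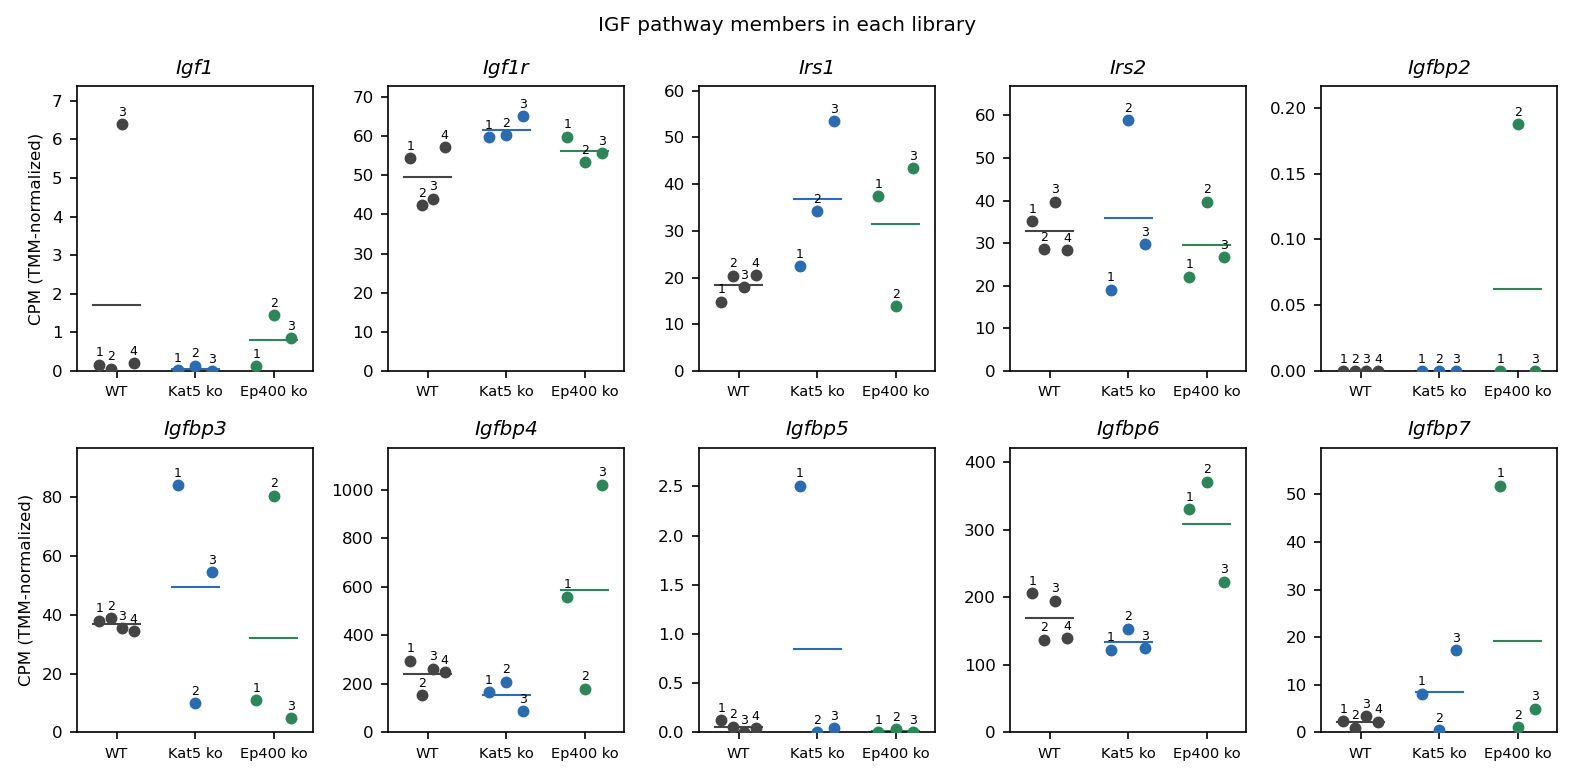
Normalized CPM (vertical axes, linear, each with its own scale from 0) of the 10 genes in every library. Points are libraries with their replicate or clone number and lines are group means. Only *Igfbp6* had all 3 Ep400 ko clones (223 to 371 CPM) above every other library, while *Igfbp3*, *Igfbp4* and *Igfbp7* varied widely between clones of the same knockout.

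The genes spanned a wide range of expression in wildtype cells. Per exon length and library size (CPM per kilobase of exon, RPKM, the scale on which different genes can be compared), *Igfbp6* had the highest level in wildtype cells, at 152 ± 32.5 RPKM (SD, n = 4), followed by *Igfbp4* at 54.3 ± 13.9 and *Igfbp3* at 11.8 ± 0.666. *Irs2* (5.21 ± 0.872 RPKM), *Igf1r* (2.95 ± 0.439 RPKM) and *Irs1* (2.01 ± 0.290 RPKM) came next. Neighbors in this order did not overlap between wildtype libraries, except *Irs1* and *Igfbp7* (1.87 ± 0.831 RPKM). *Igf1*, *Igfbp2* and *Igfbp5* were close to the limit of detection in most libraries.

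*Igf1* (ENSMUSG00000020053, plus strand of chromosome 10 from 87858265 to 87937042 in GRCm38, the build called mm10) encodes the ligand. Its counts in the wildtype libraries were 5, 2, 245 and 9. There were 1, 4 and 0 counts in Kat5 ko clones and 5, 46 and 34 in Ep400 ko clones. A single wildtype library thus carried most reads of its group, at 6.39 CPM, and exceeded all clones, while Ep400/2 (1.44 CPM) and Ep400/3 (0.846 CPM) exceeded the other 3 wildtype libraries. *Igf1* passed the filter on low counts only against Ep400 ko clones, where the log2-fold change was −1.10 ± 1.49 (SE) and not significant (adjusted p = 0.646, quasi-likelihood test of edgeR, adjusted over all genes tested by Benjamini-Hochberg, as for all adjusted p-values). Without WT/3 *Igf1* did not pass the filter. Among the other ligands, *Igf2* had between 0 and 21 counts per library, and *Ins1* and *Ins2*, the insulin genes, had none.

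*Igf1r* (chromosome 7, 67952827 to 68233668, plus strand) encodes the signaling receptor and varied least between clones of a knockout among the members tested in all comparisons. Wildtype libraries had 54.4, 42.4, 44.0 and 57.2 CPM. In Kat5 ko clones it had 59.8, 60.2 and 65.1 CPM, and in Ep400 ko clones 59.9, 53.3 and 55.7 CPM. All Kat5 ko clones therefore lay above the wildtype range, which was the case for 9.67% of all genes tested in that comparison, but the difference of 0.29 ± 0.15 (SE) on the log2 scale did not pass the test (adjusted p = 0.298, 95% interval −0.06 to 0.63). The Ep400 ko clones overlapped the wildtype range (log2-fold change 0.18, 95% interval −0.16 to 0.53, adjusted p = 0.424). Among all 14079 genes kept, 97.1% varied more between the Kat5 ko clones than *Igf1r* did, and 93.8% varied more between the Ep400 ko clones.

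2 further receptors for IGFs or insulin were measured. *Igf2r*, which encodes the receptor that takes up IGF2 for degradation, had 255, 241, 421 and 279 CPM in wildtype libraries, 175, 108 and 86.1 CPM in Kat5 ko clones and 220, 168 and 276 CPM in Ep400 ko clones. All Kat5 ko clones were below the wildtype range, which held for 10.2% of genes tested. The log2-fold change in Kat5 ko clones was −1.31 ± 0.30 (SE) with an adjusted p of 0.0761, and it passed the test with DESeq2 (adjusted p = 0.000866), without a filter (0.0450) and without Kat5/1 (0.00891). The insulin receptor gene *Insr* had log2-fold changes of −0.40 (adjusted p = 0.190) in Kat5 ko and −0.03 (adjusted p = 0.955) in Ep400 ko clones.

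*Irs1* (chromosome 1, 82233101 to 82291416, minus strand) and *Irs2* (chromosome 8, 10984681 to 11008458, minus strand) encode the docking proteins below the receptor. Their RefSeq start sites lay 23 bases (*Irs1*) and 471 bases (*Irs2*) upstream of the outermost starts in GENCODE M21. Both RefSeq start regions held the palindromic E-box CACGTG, a motif bound by basic helix-loop-helix factors. It was found in 7.15% of the 32851 mouse promoter sequences of RefSeq (GRCm38.p6, 250 bases before to 50 bases after a start site, both strands searched). The windows around it, shown because both docking protein genes hold the motif, as does *Igfbp2* among the other members (at −142), are given with the E-box in capitals, 5′ to 3′ on the gene's strand, for chr1:82291529-82291574 (*Irs1*, E-box from position −115 relative to the start site) and chr8:11008948-11008993 (*Irs2*, from position −44).
Irs1: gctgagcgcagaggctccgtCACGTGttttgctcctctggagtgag
Irs2: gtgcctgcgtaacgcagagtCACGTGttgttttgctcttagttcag

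*Irs1* had 14.8, 20.4, 17.9 and 20.5 CPM in wildtype libraries. The Kat5 ko clones had 22.5, 34.3 and 53.5 CPM, all above the wildtype range, and the Ep400 ko clones 37.5, 13.8 and 43.4 CPM, of which Ep400/2 lay below it. In Kat5 ko clones the log2-fold change was 0.96 ± 0.28 (SE), the largest relative to its error among the members in this comparison, with an adjusted p of 0.106. It passed the test without Kat5/1, the clone closest to wildtype (log2-fold change 1.22, adjusted p = 0.0126), and with DESeq2 (adjusted p = 0.0182). In Ep400 ko clones it was 0.78 ± 0.34 (SE, adjusted p = 0.157), and 1.11 without Ep400/2 (adjusted p = 0.0152). *Irs1* did not differ detectably between the knockouts (log2-fold change −0.24, 95% interval −1.33 to 0.85, adjusted p = 0.750).

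*Irs2* followed no common direction. Wildtype libraries had 35.1, 28.6, 39.8 and 28.4 CPM, the Kat5 ko clones 19.1, 58.8 and 29.8 CPM and the Ep400 ko clones 22.2, 39.7 and 26.7 CPM. Of the Kat5 ko clones 1 lay below, 1 within and 1 above the wildtype range, and of the Ep400 ko clones 2 lay below and 1 within it. The log2-fold changes were 0.09 (95% interval −0.69 to 0.87, adjusted p = 0.904) in Kat5 ko and −0.16 (95% interval −0.68 to 0.36, adjusted p = 0.664) in Ep400 ko clones. Where *Irs2* was highest in each knockout, in Kat5/2 and Ep400/2, *Igfbp7* was lowest. Among wildtype libraries the reverse held, as WT/3 had the highest level of both, at 39.8 CPM of *Irs2* and 3.47 CPM of *Igfbp7*.

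The binding proteins of highest expression were *Igfbp3*, *Igfbp4*, *Igfbp6* and, in some clones, *Igfbp7*. Their RefSeq promoters are shown because the results turn on these genes and their start regions differ in base composition and motifs. All are given 5′ to 3′ on the gene's strand with the motifs searched in capitals. These were the TATA box TATAAA (in 13.6% of all promoters), its variant TATATA (5.67%), the GC box GGGCGG (35.7%), the CCAAT box CCAAT (37.4%), the E-box (7.15%) and the FOXO motif GTAAACA (3.65%), on both strands. The coordinates are chr11:7213874-7214173 (*Igfbp3*, minus strand), chr11:99040994-99041293 (*Igfbp4*, plus strand), chr15:102143936-102144235 (*Igfbp6*, plus strand) and chr5:77407996-77408295 (*Igfbp7*, minus strand).
Igfbp3: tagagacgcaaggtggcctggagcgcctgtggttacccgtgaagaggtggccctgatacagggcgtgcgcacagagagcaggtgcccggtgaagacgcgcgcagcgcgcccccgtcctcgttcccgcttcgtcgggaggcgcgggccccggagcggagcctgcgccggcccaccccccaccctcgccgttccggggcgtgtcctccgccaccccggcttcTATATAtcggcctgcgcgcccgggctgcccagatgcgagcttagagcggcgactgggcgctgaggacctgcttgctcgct
Igfbp4: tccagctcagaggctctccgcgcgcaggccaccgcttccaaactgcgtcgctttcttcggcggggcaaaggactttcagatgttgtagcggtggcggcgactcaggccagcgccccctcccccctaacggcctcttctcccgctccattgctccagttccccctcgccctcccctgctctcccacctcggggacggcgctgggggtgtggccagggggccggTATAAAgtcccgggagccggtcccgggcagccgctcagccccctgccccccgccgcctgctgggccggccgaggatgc
Igfbp6: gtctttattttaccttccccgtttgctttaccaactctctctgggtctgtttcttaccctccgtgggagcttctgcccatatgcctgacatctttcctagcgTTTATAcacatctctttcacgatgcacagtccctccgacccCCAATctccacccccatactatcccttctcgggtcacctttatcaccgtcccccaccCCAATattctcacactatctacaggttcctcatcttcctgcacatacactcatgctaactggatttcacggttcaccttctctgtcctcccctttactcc
Igfbp7: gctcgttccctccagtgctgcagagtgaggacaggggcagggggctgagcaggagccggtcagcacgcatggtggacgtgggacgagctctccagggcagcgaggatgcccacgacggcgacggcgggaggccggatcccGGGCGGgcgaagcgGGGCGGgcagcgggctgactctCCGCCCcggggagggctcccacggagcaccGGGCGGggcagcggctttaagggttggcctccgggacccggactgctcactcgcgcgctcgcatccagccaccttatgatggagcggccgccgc

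In these windows *Igfbp3* had TATATA at −30 and *Igfbp4* TATAAA at −28, the usual distance of a TATA box from the start site. *Igfbp7* had 4 GC boxes between −110 and −44 and none of the other motifs. *Igfbp6* had CCAAT at −107 and −50 and TATAAA only on the opposite strand at −148, and its RefSeq start lay 176 bases from the outermost start in GENCODE M21. For *Igfbp3*, *Igfbp4* and *Igfbp7* that distance was 0, 0 and 4 bases. The *Igfbp6* window ended at 102144235, before the GENCODE start at 102144362. Its GC content was 49.7% with 8 CpG dinucleotides, near the medians of all promoters (52.7% and 7), whereas the other 3 had 71.3% to 73.3% and 27 to 37 CpG. These are matches of letters and not measured binding sites.

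*Igfbp6* (ENSMUSG00000023046, chromosome 15, 102144362 to 102149511, plus strand) encodes a binding protein with a preference for IGF2 and was the only member called by edgeR in either comparison with wildtype. DESeq2 also called *Irs1* in Kat5 ko clones and *Igfbp4* and *Igfbp7* in Ep400 ko clones, and the fit without a filter also called *Igfbp7* in Ep400 ko clones. Wildtype libraries had 206, 137, 195 and 139 CPM (mean 169 ± 36.2, SD, n = 4). The Ep400 ko clones had 330, 371 and 223 CPM (308 ± 76.4, n = 3). Levels in Kat5 ko clones were 122, 154 and 125 CPM (134 ± 17.4, n = 3). All Ep400 ko clones were above all wildtype libraries and all Kat5 ko clones, and 2 of the Kat5 ko clones were below the wildtype range.

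*Igfbp6* rose 1.82-fold in Ep400 ko clones (log2-fold change 0.86 ± 0.23, SE, adjusted p = 0.0386). It was 1 of 8 members tested (12.5%), against 13.9% of all genes tested that were called (8.09% higher and 5.76% lower), so the members' share was near the background. All 3 clones lay above the wildtype range for 16.1% of genes tested and below it for 14.1%. In Kat5 ko clones the log2-fold change was −0.37 ± 0.19 (SE, adjusted p = 0.281). The direct comparison of Ep400 ko with Kat5 ko clones gave a 2.28-fold higher *Igfbp6* level (log2-fold change 1.19 ± 0.24, SE, adjusted p = 0.0390), as 1 of 7 members tested (14.3%) against 7.32% of all genes (4.34% higher and 2.97% lower). For 20.5% of genes all Ep400 ko clones lay above all Kat5 ko clones, and for 18.0% below.

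The call of *Igfbp6* against wildtype was kept without Ep400/3 (adjusted p = 0.0186) and lost when any of the other 6 libraries was left out (WT/1 to WT/4, Ep400/1 and Ep400/2), with adjusted p from 0.0548 to 0.114 and log2-fold changes from 0.69 to 0.97. The direct call was kept in 1 of 6 such fits, without Kat5/1 (adjusted p = 0.0438), and lost without Kat5/2, Kat5/3 or any Ep400 clone (0.0700 to 0.150). A block on replicate number gave adjusted p-values of 0.168 and 0.0674, respectively. Genes of chromosome 15 had median shifts of −0.11 to −0.10 in the Ep400 ko clones on the log2 scale, opposite in sign to that of *Igfbp6*, and the call was kept with an offset for them (0.97). In the same clones, summed neural crest markers were 2127 to 3272 CPM against 1720 to 1942 in wildtype libraries and 1789 to 1983 in Kat5 ko clones. Of this sum *Prrx1* alone had 882, 965 and 2158 CPM in Ep400/1 to Ep400/3. It had 651 to 952 CPM in wildtype libraries and 603 to 836 in Kat5 ko clones, so Ep400/1 lay within the wildtype range. *Sox9*, a gene of that list, had 40.7 to 56.2 CPM in Ep400 ko clones against 57.9 to 82.6 in wildtype libraries and 36.6 to 126 in Kat5 ko clones. *Twist1* of that list had 82.3 to 121 CPM in Ep400 ko clones, above all other libraries. It had 62.2 to 79.4 CPM in wildtype libraries and 45.2 to 81.4 in Kat5 ko clones. Summed markers of glia and neurons (6 of 7 above 3 counts in a library, *Fabp7* at 0) were 12.4 to 27.3 CPM in Ep400 ko clones, 4.70 to 7.60 in wildtype libraries and 2.89 to 12.2 in Kat5 ko clones. Markers of epithelium (7 listed) summed to 0.563 to 0.971 CPM in Ep400 ko, 0.419 to 0.827 in Kat5 ko and 1.65 to 4.83 in wildtype libraries, and those of endothelium (5 listed, *Tie1* at 0) to 0.219 to 0.473, 0.198 to 0.717 and 0.983 to 1.68. Sums overlapped between all groups for bone and cartilage (8 listed, *Ibsp* at 0, 61.8 to 124 CPM) and blood cells (5 of 6 in the table, *Cd3e* at 0, 2.56 to 7.81 CPM). The part of these markers in the result was not tested.

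**Figure D2:**
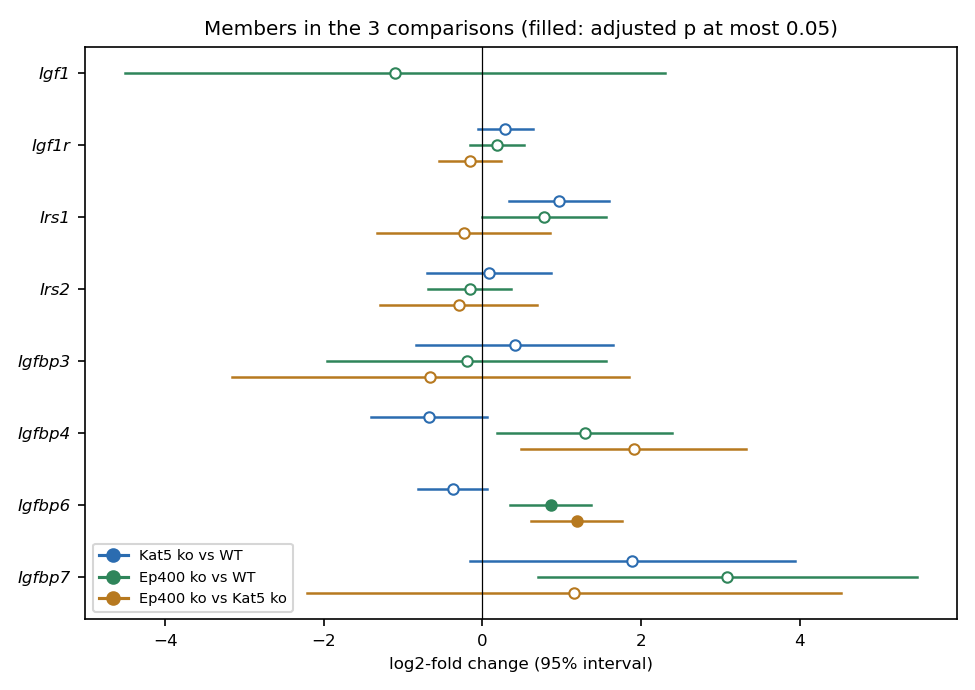
Log2-fold changes (horizontal axis) of the members tested in each comparison, with 95% intervals that are not adjusted for multiple testing. Filled points passed an adjusted p of 0.05, which only *Igfbp6* did, in Ep400 ko against wildtype (0.86) and against Kat5 ko (1.19).

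*Igfbp4* (chromosome 11, 99041244 to 99054392, plus strand) encodes a binding protein that is cleaved by the pappalysin proteases. It had 295, 153, 263 and 248 CPM in wildtype libraries. In Kat5 ko clones it had 165, 209 and 87.7 CPM, and in Ep400 ko clones 558, 180 and 1020 CPM. Ep400/1 and Ep400/3 exceeded every wildtype library, whereas Ep400/2 was within the wildtype range. The log2-fold change in Ep400 ko clones was 1.29 ± 0.48 (SE, adjusted p = 0.106), and it passed the test with DESeq2 (adjusted p = 0.0336) and without Ep400/2 (1.69, adjusted p = 0.0188). Against Kat5 ko clones the Ep400 ko clones differed by 1.91 ± 0.61 (SE, adjusted p = 0.0825), which passed the test with DESeq2 (0.00652), without a filter (0.0389) and in a single fit of all libraries (0.0268). In Kat5 ko against wildtype the difference was −0.67 ± 0.32 (SE, adjusted p = 0.256).

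*Igfbp3* (chromosome 11, 7206086 to 7213923, minus strand) encodes the main carrier of IGFs in serum. It was tightly held in wildtype libraries at 38.1, 39.0, 35.5 and 34.6 CPM, a span that 93.7% of all genes exceeded. Levels were 84.2, 9.89 and 54.6 CPM in Kat5 ko clones and 11.0, 80.6 and 4.75 CPM in Ep400 ko clones. None of the 6 clones lay in the wildtype range, with 3 above and 3 below it. The group differences were smaller than their errors, at 0.41 ± 0.54 (SE, adjusted p = 0.696) in Kat5 ko and −0.20 ± 0.77 (SE, adjusted p = 0.881) in Ep400 ko clones. Without Ep400/2, the log2-fold change in Ep400 ko clones was −2.24 and passed the test (adjusted p = 0.0117).

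*Igfbp7* (chromosome 5, 77349240 to 77408041, minus strand) encodes a related secreted protein of low affinity for IGFs. It had 2.30, 1.01, 3.47 and 2.28 CPM in wildtype libraries. The Kat5 ko clones had 8.13, 0.428 and 17.2 CPM, and the Ep400 ko clones 51.8, 1.13 and 4.95 CPM. In each knockout 2 clones exceeded the wildtype range, and the highest clone had 40.2 times the level of the lowest in Kat5 ko and 46.1 times in Ep400 ko, against 3.43 times among wildtype libraries. Only 0.966% and 0.291% of all genes had a larger span between the clones on the log2 scale. The log2-fold changes were 1.89 ± 0.90 (SE, adjusted p = 0.254) in Kat5 ko and 3.09 ± 1.05 (SE, adjusted p = 0.0837) in Ep400 ko clones, and the latter passed the test with DESeq2 (adjusted p = 0.0437), without a filter (0.0484) and without Ep400/2 (3.63, adjusted p = 0.0309).

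Markers of smooth muscle also differed between these clones. Of 6 markers (*Acta2*, *Tagln*, *Cnn1*, *Myh11*, *Actg2* and *Des*), 1 had more than 3 counts in every library and none was at 0 in all. Summed, they reached 5.87 to 16.7 CPM in wildtype libraries, 686, 0.461 and 24.1 CPM in Kat5/1 to Kat5/3 and 52.8, 2.47 and 59.2 CPM in Ep400/1 to Ep400/3. Kat5/2 and Ep400/2 had the lowest sums in their groups and also the lowest *Igfbp7*, and the part of these markers in the result was not tested. *Igfbp7* is overlapped on the opposite strand by *Polr2b*, a subunit gene of RNA polymerase II with 3988 to 10372 counts per library. The overlap is limited to the ends of the 2 genes, from 77349240 to 77349324. The strand setting of the counting was not given in the sources used here. In Kat5/2 *Igfbp7* had 13 and *Polr2b* 7268 counts, in Kat5/3 they had 781 and 10372, and in Ep400/1 2210 and 5923. A part of *Polr2b* reads in the *Igfbp7* counts was not tested.

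*Igfbp2* (chromosome 1, 72824503 to 72852474, plus strand) and its neighbor *Igfbp5* (chromosome 1, 72857932 to 72874884, minus strand) were near 0 in most libraries and were not tested. *Igfbp2* had 6 counts in Ep400/2 and none elsewhere. *Igfbp5* had 4, 2, 0 and 2 counts in wildtype libraries, 0, 1 and 0 in the Ep400 ko clones and 91, 0 and 2 in the Kat5 ko clones. Its 91 counts (2.51 CPM) came from Kat5/1, the clone with the highest sum of smooth muscle markers. *Igfbp1*, *Igfbpl1* and *Igfals*, the other genes of this group, had at most 2 counts in any library.

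Summed per kilobase of exon, transcripts of *Igfbp2* to *Igfbp7* amounted to 266, 172, 249 and 194 RPKM in wildtype libraries. The Kat5 ko clones had 182, 189 and 164 RPKM and the Ep400 ko clones 470, 401 and 437 RPKM. The Ep400 ko clones were thus above all other libraries, as a description without a test. Their make-up differed nonetheless. *Igfbp6* supplied 63.2% of the sum in Ep400/1, 83.2% in Ep400/2 and 45.9% in Ep400/3, where *Igfbp4* supplied 52.8%. In wildtype libraries *Igfbp6* made up 64.5% to 72.0% and *Igfbp4* 20.2% to 28.9%.

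**Figure D3:**
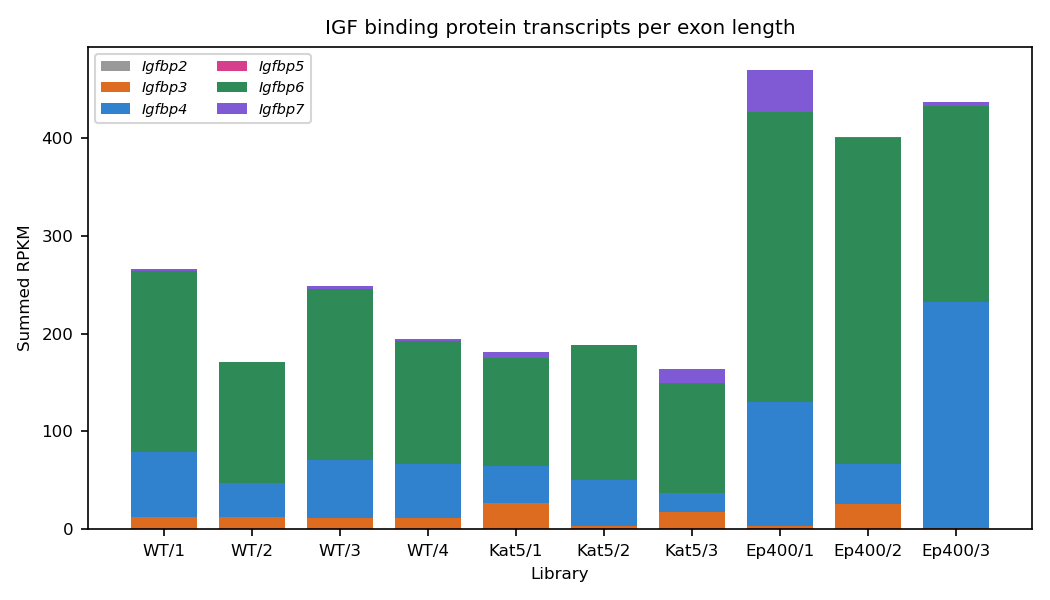
Summed RPKM of the IGF binding protein genes (vertical axis, from 0) in each library, with the part of each gene in color. The Ep400 ko clones reach 401 to 470 RPKM and the other libraries 164 to 266 RPKM, and *Igfbp6* is the largest part in all libraries except Ep400/3, where *Igfbp4* is.

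None of the 7 members tested was called in Kat5 ko clones by edgeR, where 0.499% of all genes were (0.127% higher and 0.372% lower). *Irs1* alone had an unadjusted p under 0.05 and was the only member called by DESeq2, and limma called none. Of all 13434 genes tested, DESeq2 called 1475 and limma 98. Set beside each other, Ep400/2 departed from the other Ep400 ko clones in several members. It lay below the wildtype range for *Irs1*, within it for *Igfbp4* and *Igfbp7*, and above it for *Igfbp3*, where the other Ep400 ko clones lay below. For *Igfbp6* it was the highest clone.

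**Figure D4:**
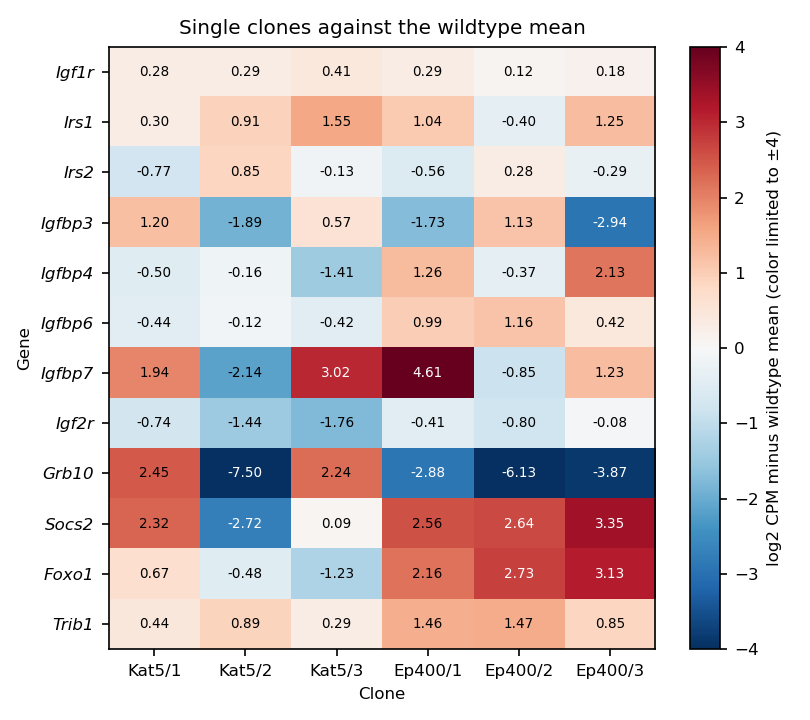
Log2 CPM of each clone minus the wildtype mean (color and printed value) for 7 members and 5 other pathway genes. *Igf1r* stays between 0.12 and 0.41 in all clones, *Igfbp3* and *Igfbp7* change sign between clones of the same knockout, and *Foxo1* is 2.16 to 3.13 higher in all Ep400 ko clones.

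The remaining pathway was examined with 65 further genes in lists by role. In Kat5 ko clones none of the 55 tested was called by edgeR or limma, whereas DESeq2 called 5, and 10 had an unadjusted p under 0.05. Of all 13434 genes tested, DESeq2 called 1475. The share of all genes with such an unadjusted p is not given here, so the 10 cannot be set against it. The median log2-fold change of the 55 genes was −0.09, against 0.00 over all genes. In Ep400 ko clones 7 of 56 (12.5%) were called, 6 higher and 1 lower, near the 13.9% of all genes. Their median was 0.02, against 0.04 over all genes.

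Of 4 *Foxo* genes tested, which encode FOXO transcription factors, *Foxo1* and *Foxo6* rose in Ep400 ko clones. *Foxo3* (−0.03, adjusted p = 0.959) and *Foxo4* (−0.56, adjusted p = 0.0964) did not pass the test, though DESeq2 called *Foxo4*. *Foxo1* had 3.67, 5.09, 2.51 and 4.37 CPM in wildtype libraries and 17.1, 25.3 and 33.5 CPM in Ep400 ko clones (log2-fold change 2.69 ± 0.31, SE, adjusted p = 0.00291). The Kat5 ko clones had 6.06, 2.70 and 1.59 CPM, so that the Ep400 ko clones were above all other libraries. *Foxo6* was of low expression, with 1.42 to 1.48 CPM in Ep400 ko clones and 0.066 to 0.491 CPM in wildtype libraries (log2-fold change 2.94, adjusted p = 0.0238). Of 8 genes known as FOXO targets, *Klf15* (2.44, adjusted p = 0.0231) and *Trib1* (1.25, adjusted p = 0.0156) rose and the other 6 did not pass the test.

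Of 11 negative regulators, 1 was higher and 1 lower. *Socs2*, which encodes a feedback inhibitor best known from growth hormone signaling, had 0.626 to 1.53 CPM in wildtype libraries and 5.86, 6.19 and 10.2 CPM in Ep400 ko clones (log2-fold change 2.89 ± 0.39, SE, adjusted p = 0.00451). *Grb10*, an imprinted gene for an adaptor that binds and restrains the insulin and IGF1 receptors, fell by 4.43 on the log2 scale (adjusted p = 0.0305). It had 7046, 7522, 491 and 10959 counts in wildtype libraries, 22087, 17 and 23892 counts in Kat5 ko clones and 641, 49 and 304 counts in Ep400 ko clones. In CPM, WT/3 lay among the Ep400 ko clones and Kat5/2 below them. In the PI3K and AKT branch, 1 of 11 genes was called, namely *Pik3r1*, the gene for the regulatory p85α subunit of PI3-kinase (0.82, adjusted p = 0.0460).

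The calls of *Foxo1*, *Socs2* and *Trib1* were kept in 7 of 7 fits without a single library. *Foxo6* was kept in 5, *Grb10* and *Klf15* in 2 each and *Pik3r1* in 1. No gene was called by edgeR among 2 receptors, 5 proteases or protease inhibitors, 5 receptor substrates and adaptors and 10 genes of the mTORC1 branch. Of these 22 genes, 3 had an unadjusted p under 0.05, DESeq2 called 3 and limma 1. Of all 13836 genes tested, DESeq2 called 3131 and limma 1888.

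In the direct comparison, 4 of 55 pathway genes (7.27%) were called, all higher in Ep400 ko than in Kat5 ko clones, against 7.32% of all genes (4.34% higher). These were *Foxo1* (2.85, adjusted p = 0.0343), *Socs3* (1.67, adjusted p = 0.0304), *Pik3r1* (1.39, adjusted p = 0.0338) and *Foxo6* (adjusted p = 0.0206), which had 1, 1 and 0 counts in Kat5 ko and 63, 47 and 57 counts in Ep400 ko clones. Each of these calls was lost in at least 4 of the 6 fits without a single clone.

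**Figure D5:**
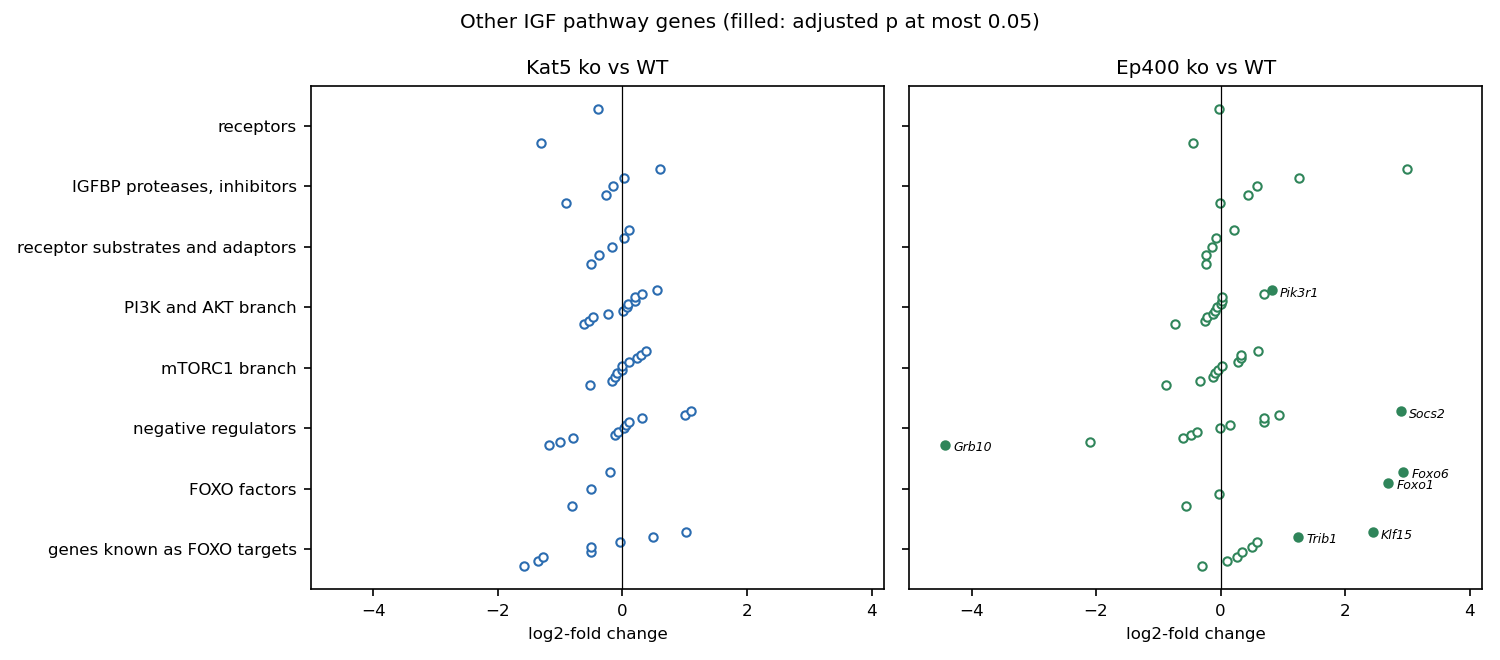
Log2-fold changes (horizontal axis) of the other pathway genes tested, by list, in Kat5 ko (left) and Ep400 ko clones (right) against wildtype. Filled, named points passed an adjusted p of 0.05. None of 55 did in Kat5 ko and 7 of 56 did in Ep400 ko clones.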

How the data were processed

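RNA of 10 libraries was analysed, grouped by their labels. The authors prepared poly-A libraries with a stranded kit, sequenced paired reads and mapped them to mm10, and the submitters' processing notes list STAR 2.7.3 and DESeq2 1.36.0. The deposited counts are whole numbers of reads per gene made by the authors, and the counting program, its strand setting and the annotation are not given in the sources used here. 2 tables of normalized values were not used.

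Each comparison was fitted separately over all genes with edgeR 4.0.16 (R 4.3.3), using filterByExpr, TMM, the quasi-likelihood test and Benjamini-Hochberg adjustment, and an adjusted p of at most 0.05 was called. Standard errors were derived from the fold change and the F statistic. CPM and RPKM use TMM factors over all 10 libraries, RPKM with exon lengths of GENCODE M21 (42462 of 43346 genes matched), so means of CPM and fitted fold changes differ slightly. Counts of 3 or fewer were taken as the floor. Replicate libraries differed beyond sampling noise (a chi-square of 28.1 to 258 for each degree of freedom). p-values measure the spread between these samples and clones.

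The members and gene lists were chosen with earlier results of these data known. Named were all members, other ligands, receptors and binding proteins above the floor, up to 15 called pathway genes per comparison by size, genes of the most similar profile, *Kat5* and *Ep400*. *Polr2b*, *Prrx1*, *Sox9*, *Twist1*, *Foxo3*, *Foxo4*, the smooth muscle genes and the marker genes at 0 were named after their values were seen. 1 marker is not reported here. The procedure was tested on simulated data. Alternatives were DESeq2 1.42.0, limma 3.58.1 (voom), other normalizations, no filter, a single fit, a replicate block, chromosome offsets and leaving out each library.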

Additional observations from a re-analysis of the deposited data

Results flagged for a closer look

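In wildtype libraries, 20 groups of 4 values were examined for a library far from the others, of which chance alone flags about 1 in 20, and 4 were found. WT/3 stood apart for 3 genes, with 6.39 CPM of *Igf1*, 12.8 CPM of *Grb10* and 101 CPM of *Socs3*. WT/2 stood apart for *Foxo6* at 0.491 CPM. The cause was not tested.

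The response to the 2 knockouts differed, by the direct test between them, for 5 genes. The log2 differences of Ep400 ko from Kat5 ko clones were 1.19 for *Igfbp6* (adjusted p = 0.0390), 2.85 for *Foxo1* (adjusted p = 0.0343), 1.39 for *Pik3r1* (adjusted p = 0.0338) and 1.67 for *Socs3* (adjusted p = 0.0304). For *Foxo6* the fitted value was 6.05 (adjusted p = 0.0206), which depends on the prior count, since the Kat5 ko clones had at most 1 count.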

How the results depend on the processing

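With 3 clones per knockout, many values depended on single libraries. Of 322 alternative values of the members' fold changes, 283 kept their direction and side of the threshold, 13 lost a call, 12 gained a call and 14 turned their direction, none of them called. The numbers of members, of pathway genes with members and of all genes called in Kat5 ko clones were 0, 0 and 67. DESeq2 gave 1, 6 and 1475, the fit without a filter 2 pathway genes and 245 genes, the single fit 26 genes, and leaving out 1 library 0 to 1, 0 to 13 and 1 to 2651. In Ep400 ko clones (1, 8 and 1917), DESeq2 gave 3, 20 and 3131, no filter 2 members, the single fit 5 pathway genes and 1273 genes, and leaving out 1 library 0 to 4, 3 to 10 and 826 to 2016. In the direct comparison (1, 5 and 994), DESeq2 gave 2, 15 and 3067, no filter 2, 11 and 1803, the single fit 2, 15 and 3539, and leaving out 1 library 0 to 1, 0 to 11 and 4 to 2537. The cause was not tested.

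The replicate block left 0 members, 0 pathway genes and 0 genes in Kat5 ko, 0, 0 and 170 in Ep400 ko and 0, 2 and 213 in the direct comparison. The labels do not describe the numbers as pairs. Correlations of same-numbered libraries ranged from −0.10 to 0.22, and not every library correlated best with its own number. With so few libraries per group, these correlations cannot settle whether the numbers pair them. With library size alone the median log2 difference of all genes in the direct comparison was 0.14 in place of 0.01, and 72.5% in place of 59.4% of calls were higher.

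Directions turned as follows, with no call. In Kat5 ko clones *Irs2* was −0.065 with limma, −0.13 with the replicate block and −0.45 to 0.39 without 1 library, and *Igfbp3* −0.027 with limma, −0.029 with the block and −0.22 to 0.90 without 1 library. In Ep400 ko clones *Igf1* was 0.50 with limma and *Insr* 0.0023 with library size alone and 0.080 with the chromosome offset. Without 1 library, *Irs2* was −0.45 to 0.0071, *Igfbp3* −2.24 to 0.31 and *Insr* −0.24 to 0.24 in Ep400 ko, and *Irs1* −0.53 to 0.14, *Irs2* −0.61 to 0.24 and *Igfbp7* −1.53 to 2.15 in the direct comparison. Counts near the floor for *Igf1*, *Igfbp2* and *Igfbp5* limit what can be detected.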

Other observations

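The 3 members with the largest range of group means of log2 CPM were *Igf1*, *Igfbp5* and *Igfbp4*. None of them was called by edgeR in its main fits, and *Igfbp5* was not tested. *Igf1* and *Igfbp5* were close to the limit of detection in most libraries. For each member, the genes outside the lists with the most similar profile were sought. The measure was the mean absolute difference of centered log2 CPM over the 10 libraries. For *Igfbp4* they were *Gm6556* (0.245), *Ptger1* (0.288) and *Coro1a* (0.326), against a median of 0.811 over all genes. These matches were of low expression, at 0.0882 to 2.99 CPM, against 87.7 to 1020 CPM for *Igfbp4*. For *Igf1* they were *Gipc2* (0.617), *Gria1* (0.722) and *Prkg1* (0.760), against a median of 1.67. *Gria1*, which encodes a glutamate receptor subunit, had 22.5, 4.54, 54.1 and 20.9 CPM in wildtype libraries, 2.95, 9.99 and 4.32 CPM in Kat5 ko clones and 14.4, 68.7 and 64.4 CPM in Ep400 ko clones. WT/3, Ep400/2 and Ep400/3 were the 3 highest libraries for *Gria1*, as they were for *Igf1*. *Gria1* was chosen by its profile over these same libraries, so the shared order follows from the choice. For *Igfbp5*, *Luzp2* (0.542), *2210016F16Rik* (0.584) and *Pcdhga6* (0.597) were nearest, against a median of 1.12. Kat5/1 was the highest library for *Luzp2*, at 13.8 CPM, and for *Pcdhga6*, at 4.63 CPM, which follows from the choice in the same way.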
